A study of Rattus norvegicus with 12 samples.

Results

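Blautia and 5 allied genera of the family Lachnospiraceae were followed in rat faeces by counting 16S rRNA gene reads. The other genera were Fusicatenibacter, Frisingicoccus, Coprococcus, Anaerostipes and the [Ruminococcus] gnavus group. They were chosen by their measured shares of library reads, which had been seen to be high after subarachnoid haemorrhage or after antibiotics and low elsewhere. Every ASV (amplicon sequence variant, a denoised read sequence) whose lineage gave Lachnospiraceae and a chosen genus was taken, which gave 53 of 7240 ASVs. Blautia held 40 of them, Anaerostipes 6, Fusicatenibacter 3, Coprococcus 2, and Frisingicoccus and the [Ruminococcus] gnavus group 1 each. Because group shares chose the genera, 3 of their differences are described without a test: SAH against Sham, SAH+Tet+ABX against SAH+Tet, and SAH+Tet against SAH.

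The study asked how tetrandrine affects the faecal community after haemorrhage. Sham rats had sham surgery, SAH rats had experimental subarachnoid haemorrhage, SAH+Tet rats had haemorrhage and tetrandrine (an alkaloid of Stephania roots and a calcium channel blocker), and SAH+Tet+ABX rats had both plus ABX, the usual short form for antibiotics. Each group had 3 libraries. The sources used here do not give strain, age, sex, drug doses, the antibiotics used or sampling times. Whether libraries come from separate animals is not stated in the labels, so p-values measure only the spread between these libraries. A second treatment label names cell differentiation, is the same in all 12 libraries and was not used.

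Lachnospiraceae are anaerobic Clostridia of the mammalian gut, many of which ferment plant fibre to short-chain fatty acids. Blautia makes mainly acetate, and several species can build it from hydrogen and carbon dioxide. Coprococcus and Anaerostipes are known as butyrate producers, Anaerostipes also from lactate, Fusicatenibacter ferments sugars, and the [Ruminococcus] gnavus group is known for degrading intestinal mucin. Frisingicoccus was described from the mouse caecum.

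Library totals ranged from 211450 to 531426 reads in 2 depth classes. The lower class held 5 libraries of at most 248285 reads, namely all 3 SAH+Tet+ABX libraries, SAH+Tet 3 and SAH 1, and the higher class held 7 of at least 448795. A count of 0 allowed a share of up to 0.000565% to 0.00142%, which is 3 reads of the library and covers counting error only. All values are relative shares, so fewer cells of a genus, fewer 16S gene copies per cell and more of other bacteria cannot be told apart.

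SAH 1 and SAH 2 stood apart as a pair. All 276 ASVs with at least 100 reads in SAH 1 had at least 10 reads in SAH 2. In the 23 other ordered pairs within groups, SAH 2 against SAH 1 among them, 48.7% to 93.0% of such ASVs were found again. Among 71 ASVs with at least 100 reads in SAH 1 and 0 in SAH 3, the median ratio of raw counts in SAH 2 over SAH 1 was 0.992, although the library totals differed 2.14-fold. For the 13 such ASVs of the 6 genera the ratio ran from 0.765 to 1.27. The counts still differed beyond sampling noise, with a chi-square per degree of freedom of 5.03 over the ASVs of the 6 genera, against 148 for SAH+Tet+ABX 2 and 3. Whether SAH 2 holds reads of SAH 1 was not tested, and a chi-square beyond sampling noise does not answer it. SAH values are given with both as separate libraries, as labelled, so n = 3 in SAH assumes that they are, and for genera with reads in SAH the folds from SAH means are also given for SAH 3 alone and with the pair averaged as 1 library, settings chosen after seeing the data.

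**Figure D1:**
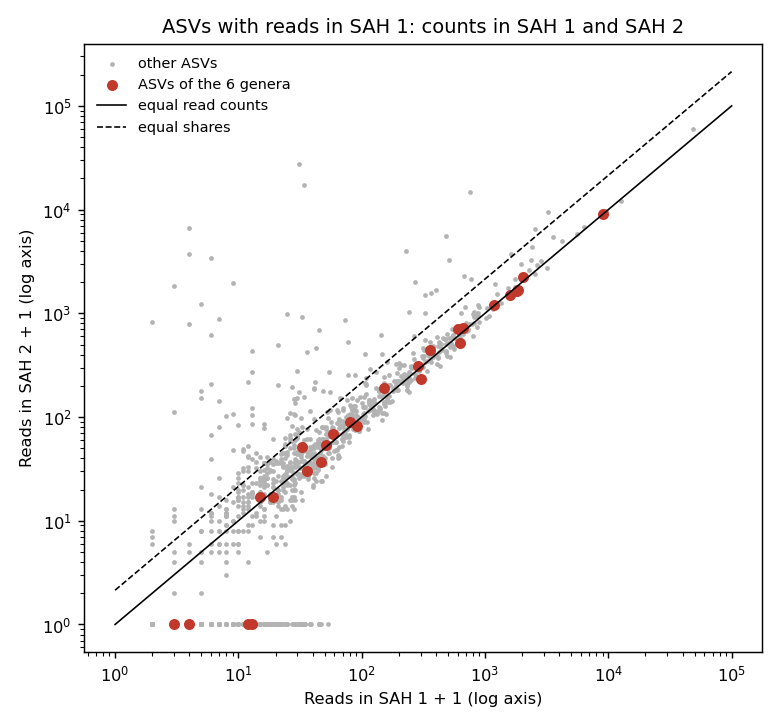
Read counts (plus 1, log axes) of every ASV with reads in SAH 1, in SAH 1 (horizontal) and SAH 2 (vertical); red points are ASVs of the 6 genera, the solid line marks equal counts and the dashed line equal shares. The 13 red points above 100 reads in SAH 1 lie along the line of equal counts, at ratios of 0.765 to 1.27, and below that of equal shares.

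The 6 genera together were high in SAH and SAH+Tet+ABX and low in Sham and SAH+Tet, with a wide spread in the high groups. In Sham the summed share was 0.0625%, 0.421% and 0.0541% in libraries 1, 2 and 3. In SAH it was 8.43%, 3.91% and 0.488%. In SAH+Tet it was 0.138%, 0.0629% and 0.0832%. Each SAH library stood above each Sham library, though SAH 3 exceeded Sham 2 by little, and all SAH+Tet libraries lay within the Sham range. In SAH+Tet+ABX the summed share was 0.988%, 2.08% and 10.1%, above each SAH+Tet library and overlapping with SAH.

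Group means were 0.179% ± 0.209 (SD, n = 3) in Sham and 0.0945% ± 0.0386 in SAH+Tet, against 4.28% ± 3.98 in SAH and 4.40% ± 5.00 in SAH+Tet+ABX. The SAH mean was 3.33% with SAH 1 and SAH 2 averaged and counted as 1 library, and SAH 3 alone stood at 0.488%. The SAH+Tet+ABX mean was 1.53% without library 3, and the Sham mean was 0.0583% without library 2. Within the lower depth class SAH 1 and the SAH+Tet+ABX libraries stood above SAH+Tet 3, and within the higher class SAH 2 and SAH 3 stood above all Sham and SAH+Tet libraries. No SAH+Tet+ABX library was in the higher class, so within a class SAH+Tet+ABX can be set only against SAH 1 and SAH+Tet 3, 1 library of each group.

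As a share of Lachnospiraceae reads only, the 6 genera made up 0.215%, 2.12% and 0.166% in Sham. They made up 28.5%, 24.3% and 2.79% in SAH, and 0.630%, 0.345% and 0.320% in SAH+Tet. In SAH+Tet+ABX they made up 3.02%, 15.8% and 30.7%. SAH and SAH+Tet+ABX thus stood above Sham and SAH+Tet inside the family as well, each library above each, with the SAH mean (18.5%) here above that of SAH+Tet+ABX (16.5%). SAH 3 and SAH+Tet+ABX 1 were the lowest of their groups on both scales.

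Some libraries carried many reads of 11 environmental and skin genera, a list that includes Corynebacterium, Staphylococcus and Aerococcus. Their summed share was 12.9% and 11.8% in SAH 2 and SAH 3, and 13.0% and 19.8% in SAH+Tet 1 and SAH+Tet 2. It lay between 0.0125% and 0.0652% in the other 8 libraries, SAH 1 among them. With these genera taken out of the totals, the mean share of the 6 genera was 4.49% in SAH and 0.107% in SAH+Tet. Any further part of these genera in the result was not tested.

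**Figure D2:**
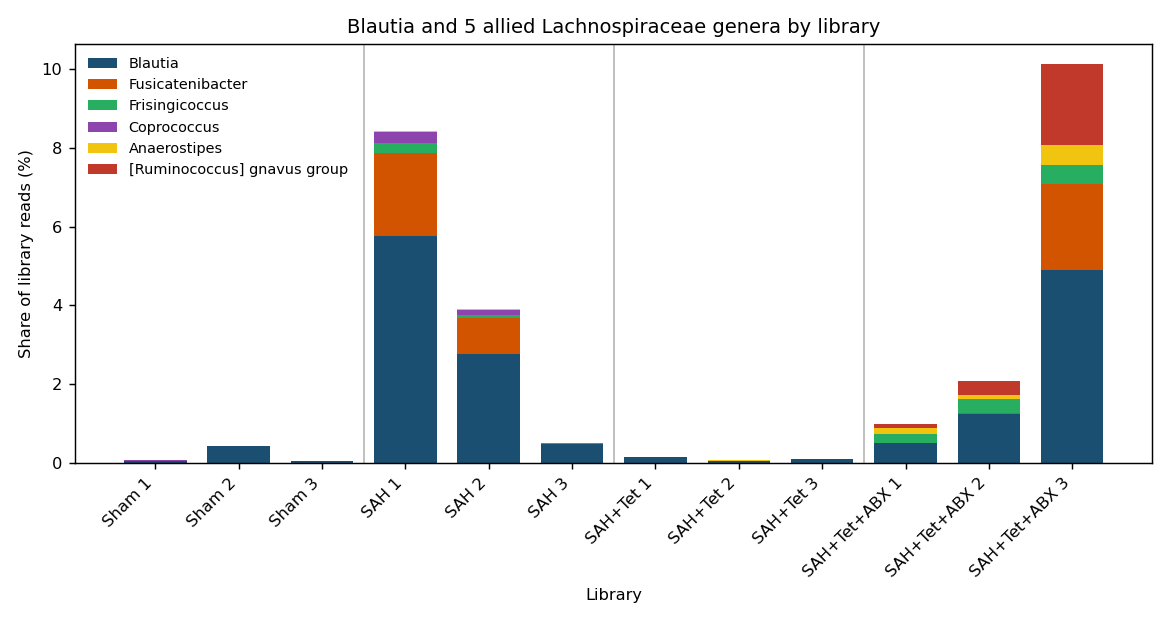
Share of library reads (%, stacked bars from 0) held by each of the 6 genera in the 12 libraries, with grey lines between groups. The bars of SAH 1 (8.43%), SAH 2 (3.91%) and SAH+Tet+ABX 3 (10.1%) are the tallest, and Sham and SAH+Tet bars stay at or below 0.421%.

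Blautia, the acetate producer, held 48.3% to 100% of the reads of the 6 genera in a library. Its share was 0.0551%, 0.419% and 0.0541% in Sham and 5.76%, 2.77% and 0.476% in SAH. It was 0.138%, 0.0513% and 0.0832% in SAH+Tet and 0.507%, 1.24% and 4.89% in SAH+Tet+ABX. The SAH libraries did not overlap with Sham or SAH+Tet, nor did SAH+Tet+ABX with SAH+Tet, and SAH 3 lay closest to the low groups. The mean in SAH was 17.1-fold that in Sham, the mean in SAH+Tet was 33.1-fold lower than in SAH, and the mean in SAH+Tet+ABX was 24.4-fold that in SAH+Tet. Single libraries moved these folds: SAH over Sham was 9.23-fold without SAH 1 and 55.0-fold without Sham 2, SAH+Tet below SAH was 17.9-fold without SAH 1, and SAH+Tet+ABX over SAH+Tet was 9.62-fold without SAH+Tet+ABX 3. With the SAH 1 and SAH 2 pair as 1 library the first 2 folds were 13.5 and 26.2, and with SAH 3 alone they were 2.71 and 5.25.

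Fusicatenibacter, the sugar fermenter, had nearly all its reads in SAH 1, SAH 2 and SAH+Tet+ABX 3. It had 5272, 4781 and 42 reads in SAH 1, 2 and 3, which were shares of 2.12%, 0.900% and 0.00936%. It had 0, 49 and 5356 reads in SAH+Tet+ABX, with a share of 2.19% in library 3. Sham 2 had 12 reads, and the other Sham libraries and all SAH+Tet libraries had 0. The SAH mean of 1.01% ± 1.06 (SD, n = 3) was thus set by SAH 1 and SAH 2, and the SAH+Tet+ABX mean of 0.736% ± 1.26 by library 3.

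Frisingicoccus, a single ASV here, had reads in all SAH and all SAH+Tet+ABX libraries and nowhere else. Its counts were 623, 511 and 12 in SAH, or 0.251%, 0.0962% and 0.00267%. They were 486, 845 and 1206 in SAH+Tet+ABX, or 0.230%, 0.361% and 0.493%. The SAH+Tet+ABX libraries were closer to each other than those of SAH, in which library 3 was far below the others. Against groups with 0 reads, set at 3 reads per library, the SAH mean was at least 196-fold higher than in Sham, the SAH+Tet mean at least 137-fold lower than in SAH, and the SAH+Tet+ABX mean at least 424-fold higher than in SAH+Tet. The first 2 bounds were 83.1 and 58.0 without SAH 1, 148 and 103 with SAH 1 and SAH 2 as 1 library, and 4.50 and 3.14 with SAH 3 alone.

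Coprococcus, a butyrate producer, had 661 and 675 reads in SAH 1 and SAH 2 and 0 in SAH 3. These were shares of 0.266% and 0.127%. The only other library with reads was Sham 1, with 16. Its presence in SAH therefore rested on the pair of libraries that shared ASVs at near equal counts, and it had 0 reads in all SAH+Tet+ABX libraries.

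Anaerostipes, which makes butyrate from lactate and acetate, had its highest shares with antibiotics. The counts in SAH+Tet+ABX were 333, 266 and 1220, or 0.157%, 0.114% and 0.498%. SAH had 79, 88 and 0 reads, with shares of 0.0318% and 0.0166% in SAH 1 and SAH 2, and Sham 1 (21 reads) and SAH+Tet 2 (60 reads) were the other libraries with any. All SAH+Tet+ABX libraries stood above all others.

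The [Ruminococcus] gnavus group, the mucin degrader, had reads in the SAH+Tet+ABX libraries only. Its counts were 198, 802 and 5053, or 0.0936%, 0.342% and 2.06%, with library 3 far above the others. The SAH+Tet+ABX mean was at least 978-fold higher than in SAH+Tet, and at least 256-fold without SAH+Tet+ABX 3. The genus therefore had no reads after haemorrhage alone, although it was chosen together with Blautia.

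Counted by groups that do not overlap, 3 of the 6 genera were higher in SAH than in Sham (Blautia, Fusicatenibacter and Frisingicoccus), a pattern that 12.2% of the 188 genera tested showed. Those 3 were also lower in SAH+Tet than in SAH, against 10.6% of genera. In SAH+Tet+ABX against SAH+Tet, 4 of the 6 were higher (Blautia, Frisingicoccus, Anaerostipes and the [Ruminococcus] gnavus group), against 9.69% of 196 genera. By the edgeR test 9.18% of genera were called higher and 28.1% lower there (18 and 55 genera, against 41 and 33 on centred log-ratio values). These counts describe how the genera were chosen, and nothing is read from them. The comparisons share groups with each other.

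**Figure D3:**
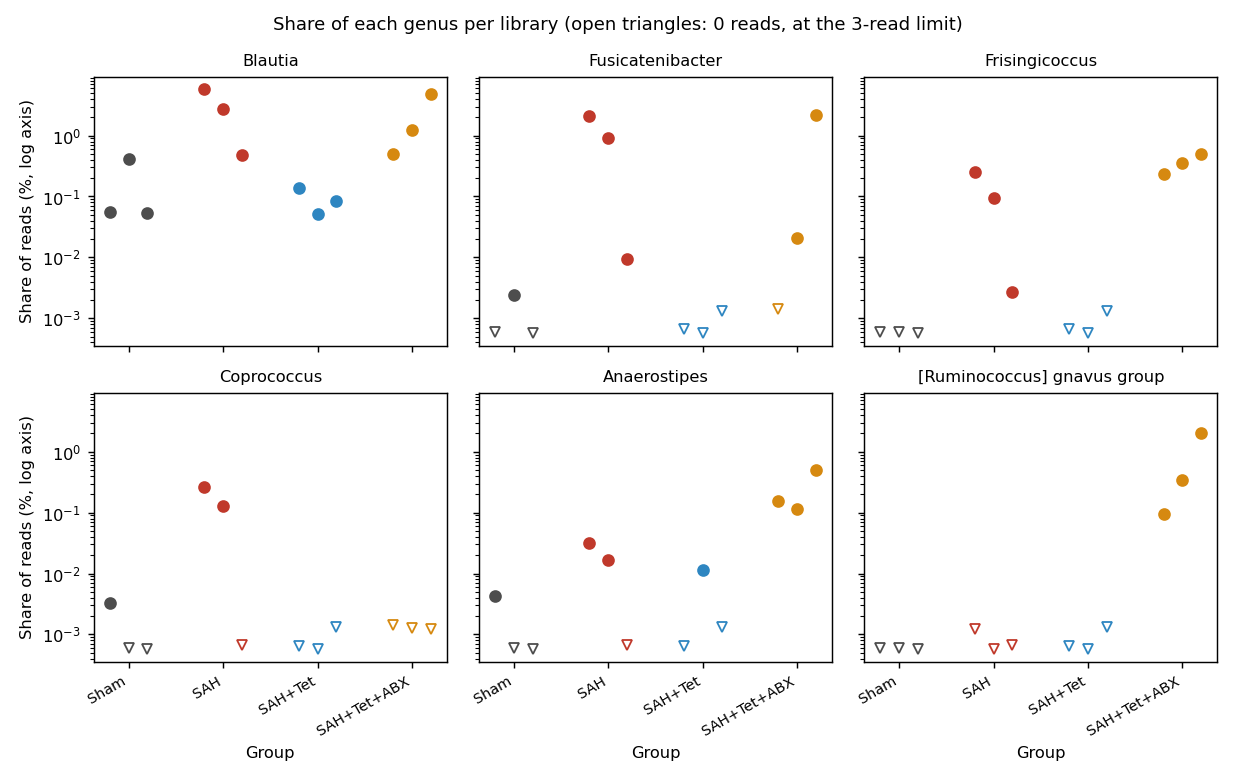
Share of library reads (%, log axis) of each of the 6 genera in the 12 libraries by group; open triangles are libraries with 0 reads, drawn at the share that 3 reads would give. Blautia has reads in all libraries, and the [Ruminococcus] gnavus group only in SAH+Tet+ABX, at 0.0936% to 2.06%.

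SAH+Tet against Sham, where both groups were low, sets the shares with tetrandrine beside those without haemorrhage. Being low in both groups was part of how the genera were chosen, so the absence of calls follows in part from that choice and supports nothing. The Blautia shares overlapped, with means of 0.0907% ± 0.0436 (SD, n = 3) in SAH+Tet and 0.176% ± 0.210 in Sham. Its log2 fold change was -0.91 ± 1.09 (SE), with an adjusted p of 0.673 by edgeR's quasi-likelihood test with Benjamini-Hochberg adjustment, and it was 0.63 without Sham 2. Anaerostipes, with reads in 1 library of each group, had a log2 fold change of 1.64 (adjusted p = 0.800, same test), which was -5.69 without SAH+Tet 2.

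None of the 5 genera tested passed in that comparison, by this test or by DESeq2 or limma, and 0 had an unadjusted p below 0.05. The background was 0% of 188 genera called by edgeR, with 35 at an unadjusted p below 0.05, 17.6% called by DESeq2 and 0 by limma. Fusicatenibacter, Coprococcus and Frisingicoccus had 0 reads in all SAH+Tet libraries and at most 16 in a Sham library. In simulated data for this comparison the test recovered 5% of genera changed 16-fold, so differences of that size could have been missed.

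SAH+Tet+ABX against SAH sets the 2 groups with high shares side by side. High shares in either group chose the genera, so the levels on both sides had been used, though not their difference, and the values below describe these genera without supporting more. All 6 passed the filter on low counts, but the [Ruminococcus] gnavus group passed it only through the SAH+Tet+ABX libraries. The groups did not overlap for Anaerostipes and the [Ruminococcus] gnavus group, both higher in SAH+Tet+ABX, a pattern shown by 7.65% of 196 genera, and for 0 of 6 in the other direction, against 27.6%.

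The [Ruminococcus] gnavus group was at least 1024-fold higher in SAH+Tet+ABX than in SAH, or at least 268-fold without SAH+Tet+ABX 3, and was the only one of the 6 called, with an adjusted p of 0.0210 by edgeR's quasi-likelihood test with Benjamini-Hochberg adjustment. Of all genera 27.6% were called, 5.1% as higher and 22.4% as lower in SAH+Tet+ABX. Its adjusted p was 0.103 with depth class as a block, and without any of the SAH+Tet+ABX libraries it no longer passed the filter. The call describes where its reads were, since the filter kept it for that reason.

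The other 5 genera did not pass. Coprococcus was at least 100.2-fold lower in SAH+Tet+ABX by group means (adjusted p = 0.0757, edgeR), at least 48.5-fold without SAH 1, at least 150-fold without SAH 3 and at least 75.1-fold with SAH 1 and SAH 2 as 1 library, and SAH 3 alone, at 0 reads, gave no fold. Its adjusted p ranged from 0.0175 to 0.304 over the alternatives in which it was tested (edgeR, DESeq2 or limma). Without SAH 1, without SAH 2 or with the 2 summed as 1 library it failed the filter and was not tested. Anaerostipes had a mean 15.9-fold that of SAH (8.40-fold without SAH+Tet+ABX 3, 31.0-fold without SAH 1, 10.6-fold without SAH 3, 21.2-fold with SAH 1 and SAH 2 as 1 library, and at least 384-fold against SAH 3 alone, which had 0 reads), with a log2 fold change of 3.83 ± 2.55 (SE, adjusted p = 0.279, edgeR), and was higher in 3 of 3 SAH+Tet+ABX libraries. Frisingicoccus had a log2 fold change of 1.45 ± 1.42 (adjusted p = 0.469, edgeR). On centred log-ratio values, limma called both, with adjusted p of 0.0281 for Anaerostipes and 0.0234 for Frisingicoccus, in a fit that called 33.2% of all genera, 20.4% as higher.

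Blautia and Fusicatenibacter had nearly equal means in the 2 groups relative to their spread, but this depended on which libraries were counted. Against SAH 3 alone, the SAH+Tet+ABX mean was 4.65-fold higher for Blautia and 78.7-fold higher for Fusicatenibacter. Without SAH+Tet+ABX 3 it was 3.44-fold and 96.6-fold lower than in SAH. With SAH 1 and SAH 2 averaged as 1 library it was 1.07-fold and 1.03-fold lower. Blautia averaged 2.21% ± 2.35 (SD, n = 3) in SAH+Tet+ABX and 3.00% ± 2.65 in SAH. Its log2 fold change was -0.58 ± 1.14 (SE, adjusted p = 0.752, edgeR) and turned to 1.98 on centred log-ratio values and to 0.31 without SAH 1. The value for Fusicatenibacter was -0.58 ± 2.62 (adjusted p = 0.895, edgeR), which turned to 0.57 without SAH 1 and to 0.06 with SAH 1 and SAH 2 summed as 1 library. A missed threshold does not show that the shares were alike.

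The log2 fold changes of the 6 genera had a median of 0.44, against -0.51 for the other Lachnospiraceae and -2.11 for all genera tested. The median of all genera was -1.91 with library-size scaling, -1.37 with DESeq2 and 0.15 on centred log-ratio values, where 40 genera were called higher and 25 lower. The 6 ran from -12.23 (Coprococcus) to 14.77 (the [Ruminococcus] gnavus group), and since high shares chose them, nothing is read from their median.

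**Figure D4:**
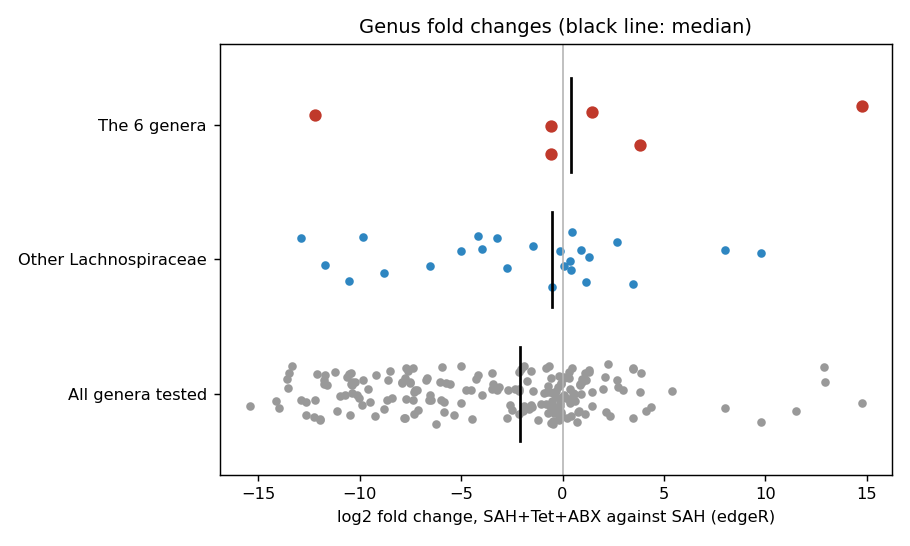
The log2 fold change of SAH+Tet+ABX against SAH (horizontal, edgeR with TMM scaling) for the 6 genera, the other Lachnospiraceae and all genera tested, with small vertical shifts for legibility and a black line at each median (0.44, -0.51 and -2.11). Fitted values beyond about 10 in size belong to genera with few or 0 reads in a group and are not bounds.

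The Blautia reads of the groups were made up of different ASVs, numbered here by their mean share over the 12 libraries. ASV 1, the most abundant, had 9013, 8981 and 310 reads in SAH and 0, 997 and 4946 in SAH+Tet+ABX. With tetrandrine alone it had 25, 13 and 0, and 0 in all Sham libraries. ASV 2 had 2034, 2244 and 244 reads in SAH and 0, 385 and 1257 in SAH+Tet+ABX, and 0 in the other groups. Both were therefore high in SAH 1, SAH 2 and SAH+Tet+ABX 3, and absent from the reads of SAH+Tet+ABX 1.

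The next ASVs leaned towards one high group or the other. ASV 3 had 1176, 1206 and 200 reads in SAH and 0, 27 and 93 in SAH+Tet+ABX, and ASV 7 had 668, 714 and 28 against 0, 36 and 131. ASV 8 had 605, 700 and 120 reads in SAH and 0 in all other libraries. In contrast, ASV 4 had 35, 29 and 81 reads in SAH and 0, 579 and 1240 in SAH+Tet+ABX. ASV 5 had 58, 67 and 0 against 0, 429 and 1230, and ASV 6 had 14, 16 and 0 against 0, 174 and 985. SAH+Tet+ABX 1 had 0 reads of all 8 leading ASVs.

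These 8 ASVs held 95.1%, 94.8% and 46.0% of Blautia reads in SAH and 0%, 90.6% and 82.5% in SAH+Tet+ABX. They held at most 1.58% in Sham and 10.9% in SAH+Tet. The Blautia of Sham and SAH+Tet was thus mostly other ASVs. The 8 were ranked by mean share over the 12 libraries, which favours ASVs of libraries with much Blautia. Their small part in Sham and SAH+Tet therefore follows in part from the ranking. In Sham 1, Sham 3, SAH+Tet 2 and SAH+Tet 3 the leading one was ASV 12, with 32.1% to 63.7% of Blautia reads, and in Sham 2 and SAH+Tet 1 it was ASV 11, with 46.4% and 74.3%. In SAH 3 it was ASV 9, with 738 reads or 34.5%, where SAH 1 and SAH 2 had 283 and 313 reads of it.

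The species field of the lineage marked a second division. It read Lachnospiraceae_bacterium, which names no species, for 12 of the 40 Blautia ASVs. They held 47.6%, 88.0% and 31.3% of Blautia reads in Sham and 82.4%, 57.0% and 5.29% in SAH+Tet. In SAH they held 0.224%, 0.394% and 3.32%. In SAH+Tet+ABX they held 0.931% and 0.108% in libraries 2 and 3 but 93.1% in library 1, where ASV 13 (447 reads) and ASV 14 (383 reads) led. ASV 13 and ASV 14 had at most 14 reads in any other library.

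**Figure D5:**
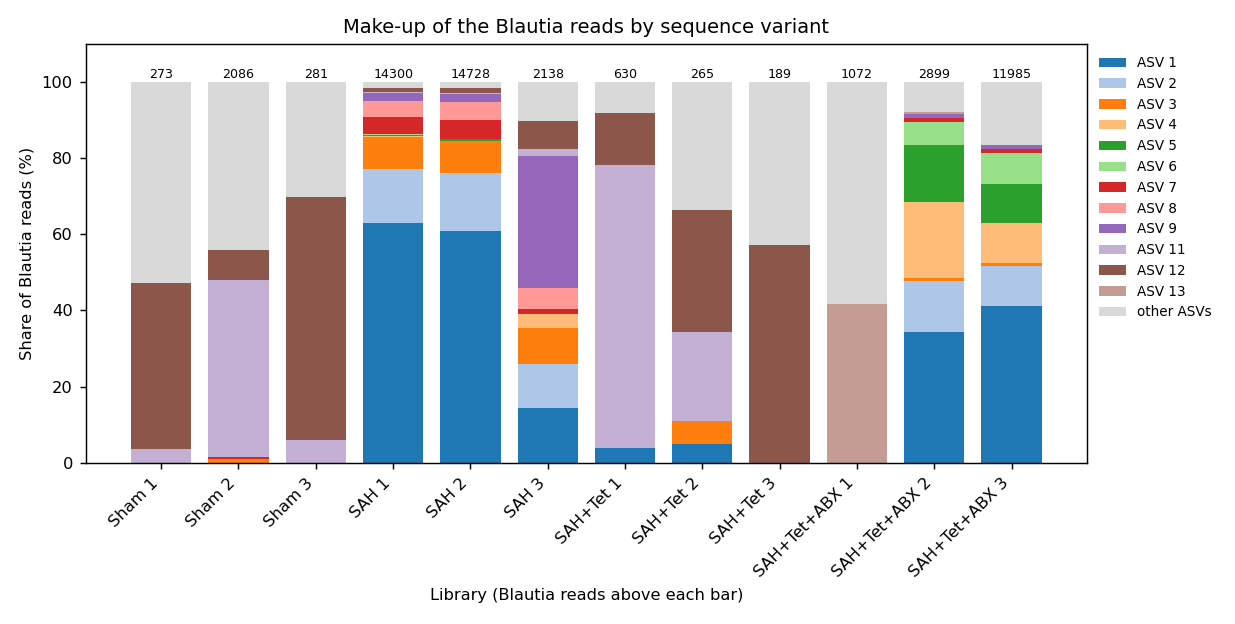
Percent of the Blautia reads of each of the 12 libraries held by each ASV (stacked bars from 0 to 100%, with the Blautia read count above each bar); grey is all ASVs not listed. ASV 1 fills 63.0% and 61.0% of SAH 1 and SAH 2 and 34.4% and 41.3% of SAH+Tet+ABX 2 and 3, ASV 12 appears in the 9 libraries without antibiotics, and SAH+Tet+ABX 1 holds ASV 13 in their place.

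ASV 12 departed from the genus total in the libraries with antibiotics, where it had 0 reads in all 3, as did ASV 8. ASV 12 was the only Blautia ASV with reads in all 9 libraries without antibiotics. Its counts were 119, 168 and 179 in Sham, 150, 191 and 156 in SAH, and 86, 85 and 108 in SAH+Tet, a share of 0.0164% to 0.0604%. It was at least 33.4-fold lower in SAH+Tet+ABX than in SAH (0.0437% ± 0.0145, SD, n = 3), with an adjusted p of 0.0194 by edgeR's quasi-likelihood test with Benjamini-Hochberg adjustment over 2394 ASVs. Of these ASVs 7.81% were called, 7.52% as lower and 0.292% as higher (180 and 7 ASVs, against 125 and 87 on centred log-ratio values). The adjusted p was 0.0503 without SAH+Tet+ABX 2, 0.0597 without SAH+Tet+ABX 3 and 0.0527 with no filter on low counts. It was 0.0203 with depth class as a block.

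Of the 53 ASVs 25 passed the filter in that comparison, and 3 were called. The other two calls, Blautia ASV 8 and the [Ruminococcus] gnavus group ASV, each with an adjusted p of 0.0496 in edgeR, had reads in a single group, through which they had passed the filter. ASV 8 was at least 102-fold lower in SAH+Tet+ABX than in SAH. It was no longer called without any of the SAH+Tet+ABX libraries (adjusted p of 0.113 to 0.120, edgeR), and the [Ruminococcus] gnavus group ASV was not called without SAH 2 (0.0988) or SAH 3 (0.0847). The leading Blautia ASVs 1 and 2 did not pass, with log2 fold changes of -2.04 ± 2.35 and -1.84 ± 2.21 (SE, adjusted p of 0.581 and 0.611, edgeR).

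By presence of reads, 13 Blautia ASVs were found in Sham and 8 in SAH+Tet, against 25 in SAH and 20 in SAH+Tet+ABX. SAH and SAH+Tet+ABX shared 11, which were 44% of those in SAH and 55% of those in SAH+Tet+ABX. The shared ASVs held 91.4% and 82.1% of the Blautia reads of these groups. Sham and SAH+Tet shared 6, or 46.2% and 75% of theirs, which held 61.3% and 95.6% of their Blautia reads. Sham and SAH shared 7, which held 61.3% of Blautia reads in Sham and 16.0% in SAH. SAH and SAH+Tet shared 5, which held 70.1% and 86.2% of theirs. SAH+Tet+ABX shared 3 with SAH+Tet and 2 with Sham. Shared ASVs were thus not confined to the 2 high or the 2 low groups. At a common depth of 211450 reads per library the expected number differed from the observed one by less than 1. That depth thins whole libraries and leaves the numbers of Blautia reads unequal, at 189 in SAH+Tet 3 to 14728 in SAH 2. Numbers of ASVs were not compared at equal numbers of Blautia reads.

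The Bray-Curtis distance within Blautia, from 0 for equal make-up to 1 for no shared ASV, was 0.025 between SAH 1 and SAH 2 and 0.562 and 0.552 from these to SAH 3. It was 0.227 between SAH+Tet+ABX 2 and 3, and 0.967 and 0.939 from these to SAH+Tet+ABX 1. Between SAH 1 and SAH+Tet+ABX 3 it was 0.446, below the distances of SAH 1 and SAH 2 to SAH 3. SAH+Tet+ABX 1 and SAH 1 shared no Blautia ASV. Distances between Sham and SAH+Tet libraries had a median of 0.564, and those between Sham and SAH libraries a median of 0.965. Within Sham the median was 0.859 (0.229 to 0.883), and within SAH+Tet it was 0.679 (0.509 to 0.863). Libraries of the same low group thus also differed widely in make-up. These distances are descriptions of 12 libraries and were not tested.

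Diversity within Blautia, measured as an effective number of ASVs, varied as much within groups as between them. The effective number of ASVs (the number of equally common ASVs that would give the same inverse Simpson index) was 4.23, 2.58 and 2.32 in Sham and 2.33, 2.46 and 5.62 in SAH. It was 1.74, 4.54 and 2.14 in SAH+Tet and 3.05, 4.93 and 4.62 in SAH+Tet+ABX. All groups overlapped. The groups did not differ beyond their spread (p = 0.529, exact permutation test of the F statistic over 369600 arrangements of the 12 libraries), and leaving out a library gave p of 0.211 to 0.779 in the same exact test.

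In the smaller genera the ASVs also split between SAH and SAH+Tet+ABX. Fusicatenibacter ASV 1 had 1853, 1663 and 0 reads in SAH and 0, 49 and 3375 in SAH+Tet+ABX, and ASV 2 had 1817, 1632 and 42 against 0, 0 and 1981. ASV 3 had 1602, 1486 and 0 reads in SAH and 0 in SAH+Tet+ABX. The genus in SAH+Tet+ABX 3 was therefore made of 2 of the 3 ASVs of SAH 1 and SAH 2. Coprococcus ASV 1 had 359 and 444 reads and ASV 2 had 302 and 231 reads in SAH 1 and SAH 2.

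Anaerostipes ASV 1 had 79, 88 and 0 reads in SAH and 0, 101 and 1082 in SAH+Tet+ABX. ASV 2 had reads in SAH+Tet+ABX only, at 236, 128 and 138, and an adjusted p of 0.0541 against SAH in edgeR. It passed the filter only through the SAH+Tet+ABX libraries, so this p describes where its reads were and supports nothing more. ASV 3, named Anaerostipes caccae in the lineage, had 97, 37 and 0 reads in SAH+Tet+ABX and none elsewhere. ASV 2 thus held 70.9% of the Anaerostipes reads in SAH+Tet+ABX 1. In SAH+Tet+ABX 2 it held 48.1%, beside 38.0% for ASV 1. In SAH+Tet+ABX 3, ASV 1 held 88.7%.

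The other 30 named genera of the family give the setting, of which 24 or 25 were tested. None was called by edgeR in SAH against Sham, SAH+Tet against SAH or SAH+Tet against Sham, where 8, 8 and 3 had an unadjusted p below 0.05, against 55, 37 and 35 of all 188 genera. DESeq2 called 7, 6 and 3 of the family, against 48, 30 and 33 of all genera. Their median log2 fold changes were 0.01, 0.56 and 0.27, against 0.22, 0.09 and 0.01 over all genera. In SAH against Sham their median was thus near 0. Its most abundant named genus, the Lachnospiraceae NK4A136 group, stood at 4.73% ± 0.562 (SD, n = 3) in Sham and 5.62% ± 1.53 in SAH+Tet, against 1.90% ± 0.506 in SAH and 2.05% ± 1.61 in SAH+Tet+ABX.

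In SAH+Tet+ABX against SAH+Tet, 9 of 25 were called, 3 higher and 6 lower, against 37.2% of all 196 genera. Against SAH, 8 of 25 were called, against 27.6% of all 196 genera. Higher in SAH+Tet+ABX were GCA-900066575, Lachnospiraceae UCG-010, the [Ruminococcus] torques group and Eisenbergiella, with adjusted p of 0.0147 to 0.0431 by edgeR. Eisenbergiella did not pass the filter in the libraries without antibiotics, so its call rests on the SAH+Tet+ABX libraries that let it pass. The shares of the [Ruminococcus] torques group overlapped between SAH+Tet+ABX and SAH. Lower were the [Eubacterium] ventriosum group, Roseburia, Tyzzerella and the [Eubacterium] ruminantium group, with adjusted p of 0.000787 to 0.0142 by edgeR. Roseburia, a butyrate producer, stood at 3.29% ± 1.86 (SD, n = 3) in SAH and at 0.00399% ± 0.0069 in SAH+Tet+ABX. The count was 4 without SAH 2, 5 without SAH 3 and 5 without SAH+Tet+ABX 2, with 4 lower and 0 or 1 higher calls each time.

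Among 159 other named genera, 8 are given here whose log2 shares followed the summed share of the 6 most closely over the 12 libraries. Candidatus Stoquefichus had a Pearson r of 0.81, Erysipelotrichaceae UCG-003 of 0.80, Erysipelatoclostridium of 0.78 and Holdemania of 0.75. Parasutterella had 0.73, the Lachnospiraceae ND3007 group 0.71, Adlercreutzia 0.68 and Streptococcus 0.67. At the other end were the Lachnospiraceae NK4A136 group at -0.86, UCG-009 at -0.83, Bilophila at -0.82 and Papillibacter at -0.80. The points share libraries, depth classes and groups, so these values are descriptions only.

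Candidatus Stoquefichus, the closest, stood at 0.00726%, 0.0201% and 0.0381% in Sham and 0.173%, 0.103% and 0.135% in SAH. It stood at 0.0103%, 0.0211% and 0.0163% in SAH+Tet and 0.175%, 0.0683% and 0.161% in SAH+Tet+ABX. Its SAH libraries did not overlap with Sham or SAH+Tet, and SAH 3 lay between SAH 1 and SAH 2. The Lachnospiraceae ND3007 group, the closest within the family, had 1.31%, 0.536% and 0.131% in SAH and at most 0.0547% in any other library, so it was high after haemorrhage but not with antibiotics.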

How the data were processed

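The authors deposited raw counts, reads per ASV with its lineage, in a series table whose 12 columns equalled the 12 per-library tables. The submitters' processing notes name fastp and cutadapt, read trimmers, without versions. The sources used here do not give the primers, the denoiser or the taxonomy database, which set how reads split into ASVs and how ASVs are named. No reads were corrected for 16S copy number.

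The 2 Eukaryota ASVs were left out, and the other 7238 were summed to 385 genus-level features. Genera and ASVs were tested with edgeR's quasi-likelihood test (version 4.0.16, R 4.3.3; TMM scaling, group as the only term). Features needed 10 or more reads in 3 or more libraries of the fit, with Benjamini-Hochberg adjustment over all features tested and a threshold of 0.05. SAH against Sham, SAH+Tet against SAH and SAH+Tet against Sham came from the 9 libraries without antibiotics, and comparisons with SAH+Tet+ABX from all 12. The SE of a log2 fold change is its size over the root of the test's F. A fold against a group with 0 reads is a bound at 3 reads per library. Alternatives were DESeq2 1.42.0, limma 3.58.1 on centred log-ratio values (0.5 reads added), library-size scaling, no filter, the replicate number or depth class (split at 300000 reads) as a block, and each library left out. In simulated data, edgeR recovered 0% of genera and of ASVs changed 16-fold in SAH+Tet+ABX against SAH (196 genera, 2394 ASVs) and made 0 calls in unchanged data, so a missed call says little.

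The text names all 6 genera, the 8 leading Blautia ASVs and 3 of each other genus by mean share, the 8 most and 4 least alike genera by Pearson r of log2(share + 0.0005%), and the called genera of the family. Blautia ASVs 9 and 11 to 14 were named after their values were seen. The genera, lists and tests were chosen with earlier results of these data known.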

Additional observations from a re-analysis of the deposited data

How the results depend on the processing

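For the 6 genera in SAH+Tet against Sham and SAH+Tet+ABX against SAH, no result changed to a call in the opposite direction. The other Lachnospiraceae and the ASVs were compared between settings by numbers of calls, which cannot show a reversed call. For the other Lachnospiraceae, DESeq2 called 7 in SAH against Sham, 6 in SAH+Tet against SAH, 15 in SAH+Tet+ABX against SAH+Tet and 3 in SAH+Tet against Sham, against 0, 0, 9 and 0 by edgeR. Over all genera DESeq2 called 48, 30, 105 and 33, against 0, 0, 73 and 0 by edgeR. Limma called 1 in SAH against Sham, and depth class as a block gave 2 there and 1 in SAH+Tet against Sham. Leaving out a library gave 0 to 1 in SAH against Sham and in SAH+Tet against SAH (1 without SAH 3), 7 to 10 in SAH+Tet+ABX against SAH+Tet and 0 to 1 in SAH+Tet against Sham (1 without Sham 2). In SAH+Tet+ABX against SAH, the 8 calls became 5 with the replicate block, 4 with the depth block and 4 to 8 without a library.

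Of the 6 genera in SAH+Tet+ABX against SAH, 1 was called, against 2 by DESeq2, 3 by limma and 2 with no filter (Coprococcus added by DESeq2 and with no filter). Both blocks gave 0, and leaving out a library gave 0 to 2, with 2 without SAH 3 and 0 without any SAH+Tet+ABX library, when the [Ruminococcus] gnavus group fails the filter. The 3 called ASVs became 7 by DESeq2, 5 by limma, 5 with no filter, 1 with the replicate block, 1 with the depth block and 0 to 3 without a library. Counted against Lachnospiraceae reads, the summed share averaged 0.833% in Sham and 0.431% in SAH+Tet, against 18.5% in SAH and 16.5% in SAH+Tet+ABX. As a share of all library reads, SAH within the lower depth class was 8.43% (SAH 1), which was 28.5% of its Lachnospiraceae reads. Counting SAH 1 and SAH 2 as 1 library, chosen after seeing the data, gave 1 genus and 2 ASVs called. Of the 3 ASVs called before, Blautia ASV 12 was called again (adjusted p = 0.0245, edgeR), the [Ruminococcus] gnavus group ASV was at 0.0501 and Blautia ASV 8 failed the filter.

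Of 18 pairs of same-numbered libraries, 3 had a correlation of their deviations above 0.1, and the values ran from -0.586 to 0.496. With 3 libraries per group these values cannot decide whether the replicate numbers pair the samples, and the labels do not say. With the replicate block the [Ruminococcus] gnavus group had an adjusted p of 0.082 in edgeR, Blautia ASV 12 of 0.0692 and ASV 8 of 0.0541, and the effective number of Blautia ASVs a p of 0.578 in the exact permutation test. The effective number was not run for the [Ruminococcus] gnavus group, which has 1 ASV. The cause of these differences between settings was not tested. Depth limits detection to shares of 0.000565% to 0.00142%, which is 3 reads of a library.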
